A study of Mus musculus with 8 samples.

Results

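Macrophages that had received interferon gamma and bacterial lipopolysaccharide (LPS plus IFNg) were compared with macrophages left without stimulus, both for 24 h, across all genes with a symbol in the deposited table. The comparison uses 5 of the 8 libraries of the series, the 3 with LPS plus IFNg and the 2 unstimulated ones, chosen by the group line of the table and not by any measured value. The other 3 libraries received IL4. They enter the estimate of the spread, and their levels are given where a named gene is set against them. All cells were bone-marrow derived macrophages, grown in culture from marrow precursors of C57BL/6 mice, and the labels name no mutation or transgene. The sources used here give neither the animals' age nor the doses of the stimuli. Neither do the labels say whether the replicates came from separate animals or from wells of the same culture, so a p-value here measures only how far these libraries spread, which may be technical. In bulk libraries, fewer cells of a type and less RNA per cell cannot be told apart.

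LPS is a cell wall component of Gram-negative bacteria that macrophages sense through Toll-like receptor 4, which activates the transcription factor NF-kB through its adaptors and also induces interferon beta. IFNg, made by T and NK cells, signals through the kinases Jak1 and Jak2 to GAS sites in DNA, while interferon beta acts mainly through interferon-stimulated response elements (ISRE). Given together, the stimuli are the textbook means of bringing macrophages to the classically activated, antimicrobial state.

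Each value is a log2 expression level from sequencing of the 3' ends of polyadenylated RNA, quantile-normalised by the authors, so that a difference of 1 between libraries stands for a doubling. A gene was called higher or lower when limma's moderated test gave an adjusted p under 0.05, and of 13615 genes tested 506 were higher (3.72%) and 579 lower (4.25%). With each library scaled to equal means of 11 housekeeping genes in place of the quantile normalisation alone, the calls were 682 higher and 391 lower. Rises were then 63.6% of the calls instead of 46.6%, and the median change over all genes was 0.27 instead of -0.04. Irrespective of the test, all 3 LPS plus IFNg libraries lay above both unstimulated ones in 16.1% of the genes and below both in 20.7%. With so few libraries, part of such separation arises by chance, so a lack of overlap alone is weak evidence of a change. Among the tested genes, the unstimulated libraries had 1577 and 2588 at exactly 0, and each LPS plus IFNg library had from 2964 to 2985. In each of these 5 libraries from 128 to 202 genes were below 0, so 0 is not the lowest level. Of the called genes, 41 were at 0 in both unstimulated libraries and 87 in all 3 LPS plus IFNg libraries. The sources used here do not say how the authors treated zero counts, so such genes are described by their levels, with no change. Their fitted changes still enter the ranking of the largest rises and falls and the list medians. Leaving out unstimulated replicate 1 gave 379 lower genes, unstimulated replicate 2 gave 309, and LPS plus IFNg replicate 2 gave 375. Whichever of the 8 libraries was left out, 366 of the 1085 calls held, and the called genes described below are among those 366 unless their paragraph says otherwise.

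**Figure D1:**
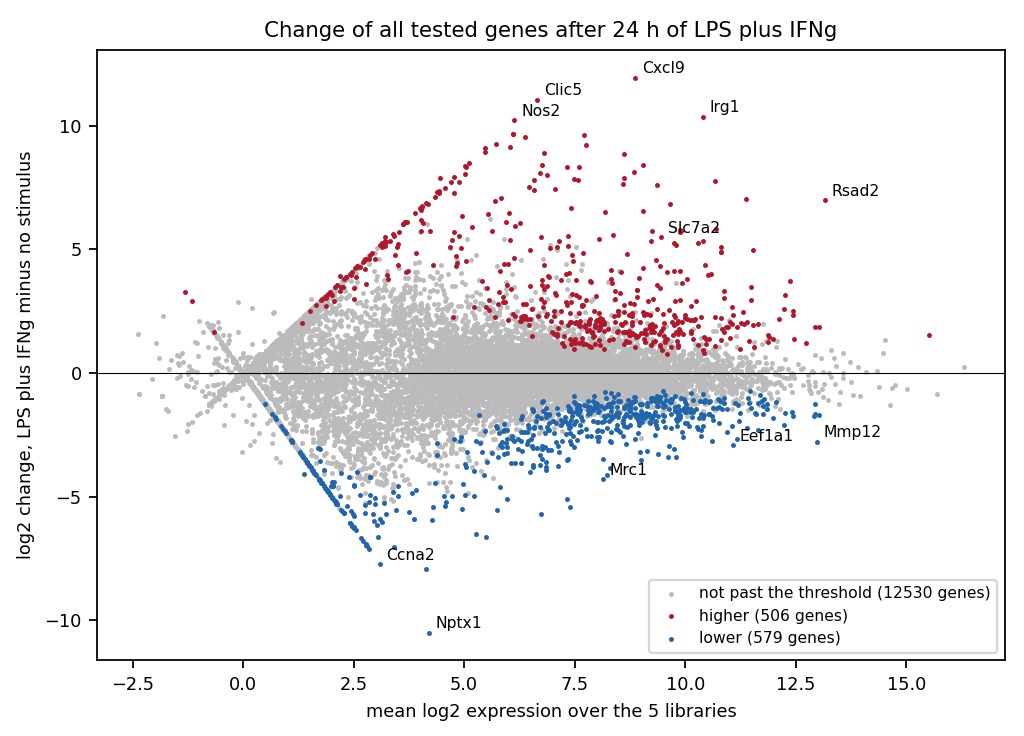
Log2 change with LPS plus IFNg (vertical axis) against the mean log2 level over the 5 libraries (horizontal axis), 1 point per tested gene, red where higher, blue where lower and grey where not past the threshold. The straight edges are genes at 0 in every library of a group. Their plotted change is not printed in the text, but enters the ranking of the largest changes and the list medians. There are 506 red points and 579 blue ones.

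The cells carried the general macrophage markers in every library, with all 15 members of that list above 0. Emr1, which encodes the macrophage surface protein F4/80, was at 11.42 and 11.22 without stimulus and 11.46, 11.27 and 10.54 with LPS plus IFNg, values that overlap. Within that list 1 of 15 members was higher, Fcgr1, and 7 were lower, with a median change of -1 (2 and 6 with housekeeping scaling). Lgals3, a galactose-binding lectin of macrophages, fell from 13.69 and 13.27 to 11.70, 11.79 and 11.76, and Sirpa, the receptor that reads the CD47 signal on neighbouring cells, from 13.97 in both unstimulated libraries to 12.28, 12.11 and 12.28. Mertk, a receptor for dying cells, was at 10.68 and 10.12 against 11.38, 11 and 11.27 and did not pass (adjusted p = 0.0979). Without unstimulated replicate 1 or 2, 3 members of the list were lower. Fcgr1 did not pass without any 1 of the unstimulated or LPS plus IFNg libraries, with an adjusted p of up to 0.161 (without unstimulated replicate 1).

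Markers of other cells of the marrow were present too. Neutrophil markers summed to a log2 level of 11.54 and 11.30 without stimulus and 9.27, 8.99 and 9.10 with LPS plus IFNg, with 4 of 14 members lower and none higher. S100a8, a calcium-binding protein that makes up much of a neutrophil's cytosol, was at 9.44 and 9.13 without stimulus and 6.63, 5.89 and 6.3 with LPS plus IFNg. None of the 14 was at 0 in the unstimulated libraries, and 4 to 6 were at 0 in the LPS plus IFNg ones. Fibroblast and endothelial markers summed to 11.77 and 11.53 against 11.24, 10.45 and 10.36, among which Acta2, smooth muscle actin, fell by 3.78 (adjusted p = 0.00433), while Col1a2, a collagen chain, was at 11.11 and 10.57 against 10.64, 10.1 and 9.66 (adjusted p = 0.347). The lymphocyte, mast cell and dendritic cell lists summed to at most 6.13 in any of these libraries. Erythroid and megakaryocyte markers summed to 9.75 and 9.54 against 7.76, 8.60 and 8.15, with no member past the threshold. Only 1 of the 7 tested members had a mean of at least 5 over these libraries, and from 3 to 5 were at 0. The member with the highest mean, Pf4, is also in the list of CXC chemokines, so this sum need not come from such cells. The part that cells of these other types take in the results below was not tested. Without unstimulated replicate 2, 2 neutrophil markers were lower.

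The largest rises were led by the following genes. Cxcl9, a chemokine that draws T cells and is a standard IFNg target, went from 1.56 and 1.86 to 13.72, 14.14 and 13.07, which is 11.93 on the log2 scale (SE 0.43, adjusted p = 7.38e-05). Clic5, a chloride intracellular channel family protein, was at 0.04 and 0 without stimulus and 11.22, 10.81 and 11.19 with LPS plus IFNg, the second largest rise. Irg1, the enzyme that makes itaconate, a metabolite with antibacterial action, stood at 4.6 and 3.76 against 14.96, 14.6 and 14.09. In each of these genes the stimulated libraries lay close together and far above both unstimulated ones.

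Nos2, the inducible nitric oxide synthase, was at 0 in both unstimulated libraries, and in all IL4 libraries, and at 10.06, 10.43 and 10.18 with LPS plus IFNg (adjusted p = 0.000594). Slfn4, a member of the Schlafen family, was at 0.91 and 0.37 without stimulus and 9.96, 10.55 and 10.1 with LPS plus IFNg. Gm4841, a predicted gene, was at 0.13 and 0.24 against 9.95, 9.94 and 8.39, with replicate 3 the lowest. Cd69, an early activation antigen of leukocytes, was at 0.04 and 0.2 against 8.23, 8.88 and 10.02, with replicate 3 the highest. Ptgs2, the inducible cyclooxygenase of prostaglandin synthesis, was at 0.04 and 4.41 against 11.4, 11.51 and 11.41, where the unstimulated libraries differed more from each other than the stimulated ones did.

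**Figure D2:**
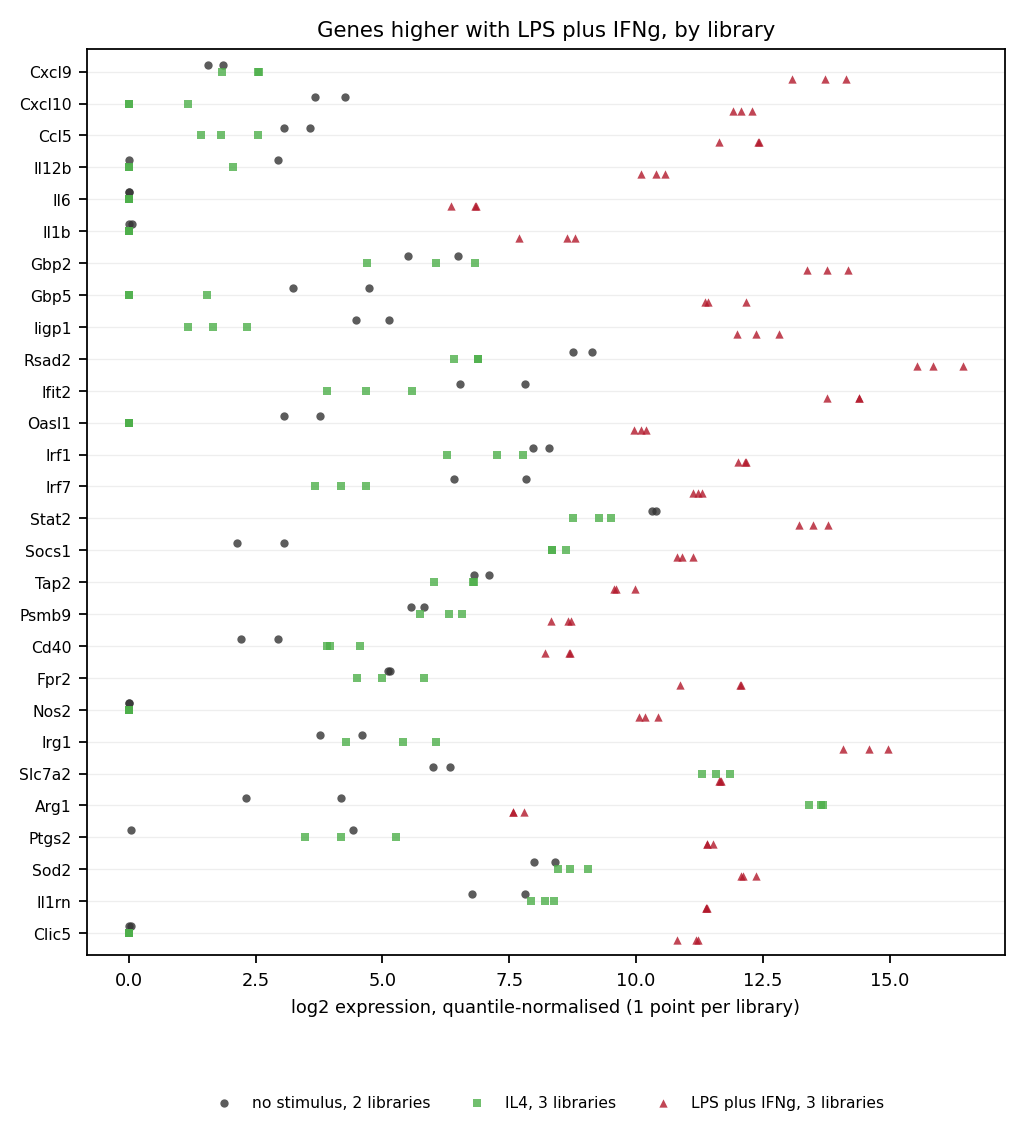
Log2 expression (horizontal axis) of 28 genes that were higher with LPS plus IFNg, 1 point per library: black circles without stimulus (2), green squares with IL4 (3) and red triangles with LPS plus IFNg (3). For every gene drawn, the red points lie to the right of both black points, while for Slc7a2 they lie among the green points and for Arg1 to the left of them.

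Secreted signals that draw or instruct T cells and monocytes were among the rises. Of 13 CC chemokines tested, 6 were higher and 2 lower (1 lower with housekeeping scaling), with a median change of 1.96 (2.64 without members at 0 in a whole group). Ccl5, which attracts T cells and monocytes, was at 3.05 and 3.57 without stimulus and 12.42, 11.63 and 12.4 with LPS plus IFNg. Ccl2 and Ccl7, ligands of Ccr2 on monocytes, had log2 changes of 3.63 (SE 0.40, adjusted p = 0.00282) and 3.33 (SE 0.35, adjusted p = 0.00256). Of all genes tested, 12.9% differed between LPS plus IFNg and IL4. Both chemokines were also high with IL4: Ccl2 averaged 11.03 there and 11.38 with LPS plus IFNg (adjusted p of the difference = 0.567), and Ccl7 averaged 10.95 against 9.73, higher with IL4 (adjusted p = 0.0442). Ccl6, a chemokine that unstimulated macrophages make, fell by 1.77 (adjusted p = 0.00685). Without unstimulated replicate 2, 3 CC chemokines were higher, and without unstimulated replicate 1 Ccl6 did not pass (adjusted p = 0.0535). In the lower direction, 1 CC chemokine passed in each fit that left out a library, except those without IL4 replicate 2 or 3.

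Among 12 CXC chemokines, 4 were higher and 1 lower, with a median change of 1.70 (2.01 without a member at 0 in a whole group). The 3 ligands of the T cell receptor Cxcr3 rose together, Cxcl9 as given above, Cxcl10 from 4.27 and 3.68 to 12.08, 11.92 and 12.29, and Cxcl11 from 0.04 and 0 to 9.08, 9.06 and 9.22. In each the stimulated libraries stood well clear of the unstimulated ones. Cxcl2, a ligand for neutrophils, was at 5.3 and 5.41 without stimulus and 8.62, 6.55 and 6.9 with LPS plus IFNg and did not pass (adjusted p = 0.248). The lower member was lost with housekeeping scaling, without unstimulated replicate 2 or any 1 of the LPS plus IFNg libraries, and 2 were lower without IL4 replicate 1.

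Of 19 interleukins and interferons tested, 7 were higher and 1 lower, with a median change of 1.99. Il1a and Il6, both fever-inducing cytokines, were at 0 in both unstimulated libraries. With LPS plus IFNg Il1a stood at 7.62, 8.43 and 7.78 and Il6 at 6.83, 6.36 and 6.84. Il1b was at 0.07 and 0 without stimulus and 7.69, 8.64 and 8.8 with LPS plus IFNg, and Il12b, the shared subunit of IL-12 and IL-23, which direct T cells towards IFNg and IL-17, at 0 and 2.94 against 10.57, 10.39 and 10.1. Il1rn, the antagonist of the IL-1 receptor, rose at the same time, from 6.76 and 7.81 to 11.41, 11.38 and 11.39 (log2 change 4.11, SE 0.31, adjusted p = 0.00103). Il10, which restrains inflammation, was at 2.11 and 2.94 against 2.21, 5.51 and 4.29, groups that overlap (adjusted p = 0.636). The lower member was lost with housekeeping scaling and when any 1 library other than IL4 replicate 3 was left out.

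In the tumour necrosis factor (TNF) superfamily 4 of 26 members were higher and none lower, with a median change of 0.87. Cd40, through which T cells activate macrophages, was at 2.22 and 2.94 without stimulus and 8.7, 8.21 and 8.67 with LPS plus IFNg. Tnfsf10, the death ligand TRAIL, and Tnfsf15 were at 0 or 0.10 at most without stimulus and at 5.53 to 6.91 and 6.03 to 7.03 with it. Tnf itself was at 3.9 and 3.76 against 8.88, 9.01 and 9.16, with no overlap, but did not pass in the fit to all libraries (log2 change 5.19, SE 1.57, adjusted p = 0.104). It passed when the IL4 libraries were left out of the fit (adjusted p = 0.00133). Tnfrsf1b, the second TNF receptor, rose by 1.85 (adjusted p = 0.00789) but not past the threshold without unstimulated replicate 2 (adjusted p = 0.0751).

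The GTPases that interferon places on the vacuoles of intracellular bacteria and parasites rose with few exceptions. Of 10 guanylate-binding proteins (GBPs), 9 were higher, with a median change of 7.82 (7.77 without Gbp1, at 0 in both unstimulated libraries), against -0.04 over all genes. Gbp2 was at 6.5 and 5.51 without stimulus and 13.37, 13.77 and 14.18 with LPS plus IFNg, Gbp5 at 3.23 and 4.74 against 11.36, 12.17 and 11.42 and Gbp10 at 0.9 and 0.21 against 9.4, 9.91 and 9.81. Gbp3 and Gbp6 started from higher levels and had changes of 5.26 and 5.18 (adjusted p = 0.0023 and 0.00135). The member that did not pass, Gbp9, was at 6.46 and 5.62 against 8.77, 10.95 and 10.74 (adjusted p = 0.131). Several GBP genes are near copies of each other, so reads may have been split among them.

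Of 12 immunity-related and large interferon-inducible GTPases, 9 were higher and none lower, with a median change of 5.46. Iigp1, which attacks the parasite vacuole membrane, was at 4.47 and 5.13 without stimulus and 12.82, 12.36 and 11.99 with LPS plus IFNg. The antiviral GTPase Mx1 was at 5.42 and 5.67 against 11.97, 12.82 and 12.39 and Gvin1, a very large GTPase, at 9.39 and 9.41 against 13.03, 12.86 and 12.73. Tgtp1 and Tgtp2 held the same values in every library, 0.15 and 0.46 against 9.76, 10.06 and 10.04, so the reads cannot be told apart between the copies. Both copies are counted among the 9 higher members, though they hold the same measurement. Irgm2 was at 4.68 and 5.38 against 8.97, 9.55 and 9.77, with no overlap, and did not pass (adjusted p = 0.105). The count of higher members was 5 without unstimulated replicate 1, LPS plus IFNg replicate 2 or LPS plus IFNg replicate 3.

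Promoter windows from RefSeq (build GRCm38.p6), from 250 bases before to 50 after the start of a transcript, were searched on both strands for the short motifs that interferon and NF-kB signalling act through. A window was found for 10759 of the 13615 tested genes. A gene may have several windows, and each was counted in the shares. The ISRE was spelled GAAANNGAAA and the GAS site TTCNNNGAA. Of the windows of higher genes, 13.2% of 508 held an ISRE, against 3.17% of 13644 windows of all tested genes and 4.33% of 624 windows of lower genes. GAS sites stood in 9.84%, 7.21% and 5.45% of the same windows. The NF-kB site, spelled GGGANNTTCC, stood in 3.15%, 1.5% and 1.92%. The 2 windows printed next are shown for their matches, marked by capitals, in an interferon-inducible GTPase of each of the families above. Tgtp1 (chr11:48992197-48992496, minus strand) holds a GAS site that starts 88 bases before the transcript start, followed by an ISRE 77 bases before it, and Gbp1 (chr3:142594597-142594896, plus strand) an ISRE read on the opposite strand, 137 bases before the start.
Tgtp1: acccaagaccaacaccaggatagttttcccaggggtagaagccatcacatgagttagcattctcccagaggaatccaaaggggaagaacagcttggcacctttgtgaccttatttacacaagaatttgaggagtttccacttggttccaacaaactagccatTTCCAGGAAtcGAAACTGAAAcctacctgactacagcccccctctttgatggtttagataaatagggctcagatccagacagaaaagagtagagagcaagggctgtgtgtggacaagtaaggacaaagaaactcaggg
Gbp1: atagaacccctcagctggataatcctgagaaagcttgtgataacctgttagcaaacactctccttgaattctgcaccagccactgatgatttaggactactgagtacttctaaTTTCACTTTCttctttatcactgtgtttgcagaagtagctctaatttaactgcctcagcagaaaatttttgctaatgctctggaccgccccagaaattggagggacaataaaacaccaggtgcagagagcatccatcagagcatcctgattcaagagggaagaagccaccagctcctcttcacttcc
A match is a description of letters and not a bound site, and the windows of Cxcl9, Clic5, Irg1, Slfn4 and Ptgs2 held none of these 3 motifs.

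**Figure D3:**
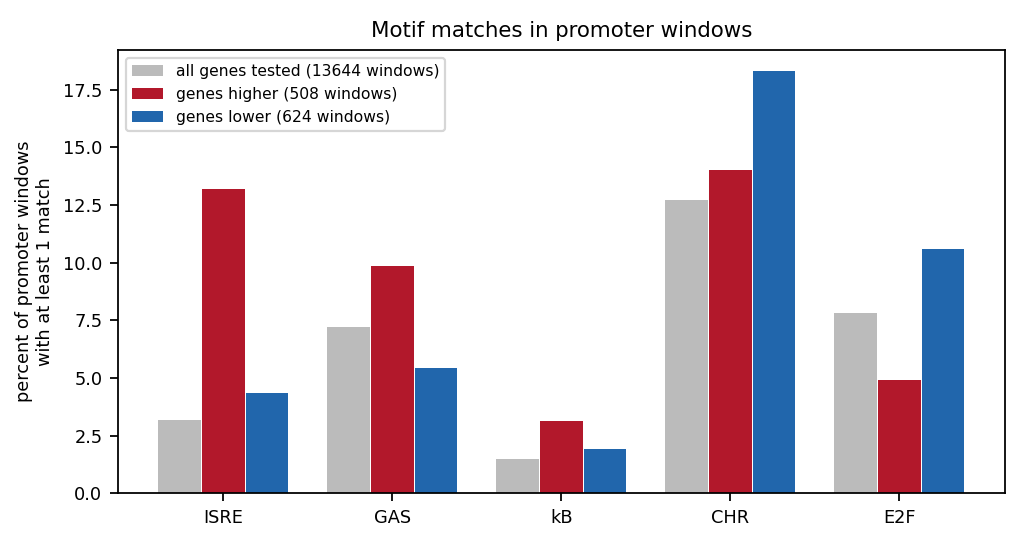
Percent of promoter windows with at least 1 match (vertical axis, bars from 0) for 5 motifs, in windows of all tested genes (grey), of higher genes (red) and of lower genes (blue). The ISRE stands out among the higher genes at 13.2% against 3.17%. The cell cycle motifs CHR and E2F are more frequent among lower genes than all tested genes, at 18.3% and 10.6% against 12.7% and 7.81%. In all RefSeq windows, tested or not (not drawn), CHR stood in 17.9%.

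Effectors and sensors against viruses rose in most of the lists that hold them. In the list of IFIT, OAS and related proteins 15 of 24 were higher and none lower, with a median change of 2.50. Rsad2 (viperin), which makes a nucleotide that ends viral RNA chains, went from 8.76 and 9.14 to 16.45, 15.54 and 15.86, which is 7 on the log2 scale (SE 0.31, adjusted p = 0.000161). Ifit2, which acts on foreign RNA, was at 6.53 and 7.81 without stimulus and 13.77, 14.4 and 14.4 with LPS plus IFNg, and Oasl1 at 3.05 and 3.76 against 9.96, 10.09 and 10.19. Some members were well above 0 before stimulation, among them Ifit3 at 7.27 and 7.52, against 11.21, 11.56 and 11.82 after it. With IL4, Ifit3 and Oasl1 were at 0 in all libraries. Samhd1, which depletes the nucleotides that viruses need, rose by 2.58 (adjusted p = 0.00179). The membrane proteins Ifitm3 and Bst2 had changes of 1.64 and 1.76 and did not pass (adjusted p = 0.0599 and 0.074). Without unstimulated replicate 1 the count of higher members was 9.

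The sensors of foreign RNA and DNA had 9 of 17 members higher and none lower, with a median of 2.48. The rises included clustered PYHIN genes, with Ifi205 from 8.36 and 8.74 to 13.92, 13.19 and 13.44, and Pyhin1 from 7.39 and 8.26 to 11.86, 12.46 and 12.23. These genes are close paralogs, so reads may have been split among them. Ddx58 (RIG-I) and Ifih1 (MDA5), the cytosolic RNA sensors, had changes of 2.48 and 3.67 and did not pass (adjusted p = 0.108 and 0.0739). Of the ISG15 system, which attaches the small protein ISG15 to others, 4 of 6 members were higher, among them the ligase Herc6 by 3.86 and the deconjugating protease Usp18 by 5.33 (adjusted p = 0.00144 and 0.00463). Parp14 and Dtx3l, which act in ADP-ribosylation and ubiquitination, rose by 3.3 and 2.04 (adjusted p = 0.000391 and 0.00446) within a list of 13 in which 6 were higher and none lower. In the Schlafen family 5 of 8 were higher. These counts fell to 5 for the sensors without unstimulated replicate 1, to 2 for the ISG15 system without any 1 of the 5 libraries, to 2 for the PARP list without unstimulated replicate 2, and to 2 for the Schlafens without unstimulated replicate 1 (3 without unstimulated replicate 2 or LPS plus IFNg replicate 2 or 3).

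**Figure D4:**
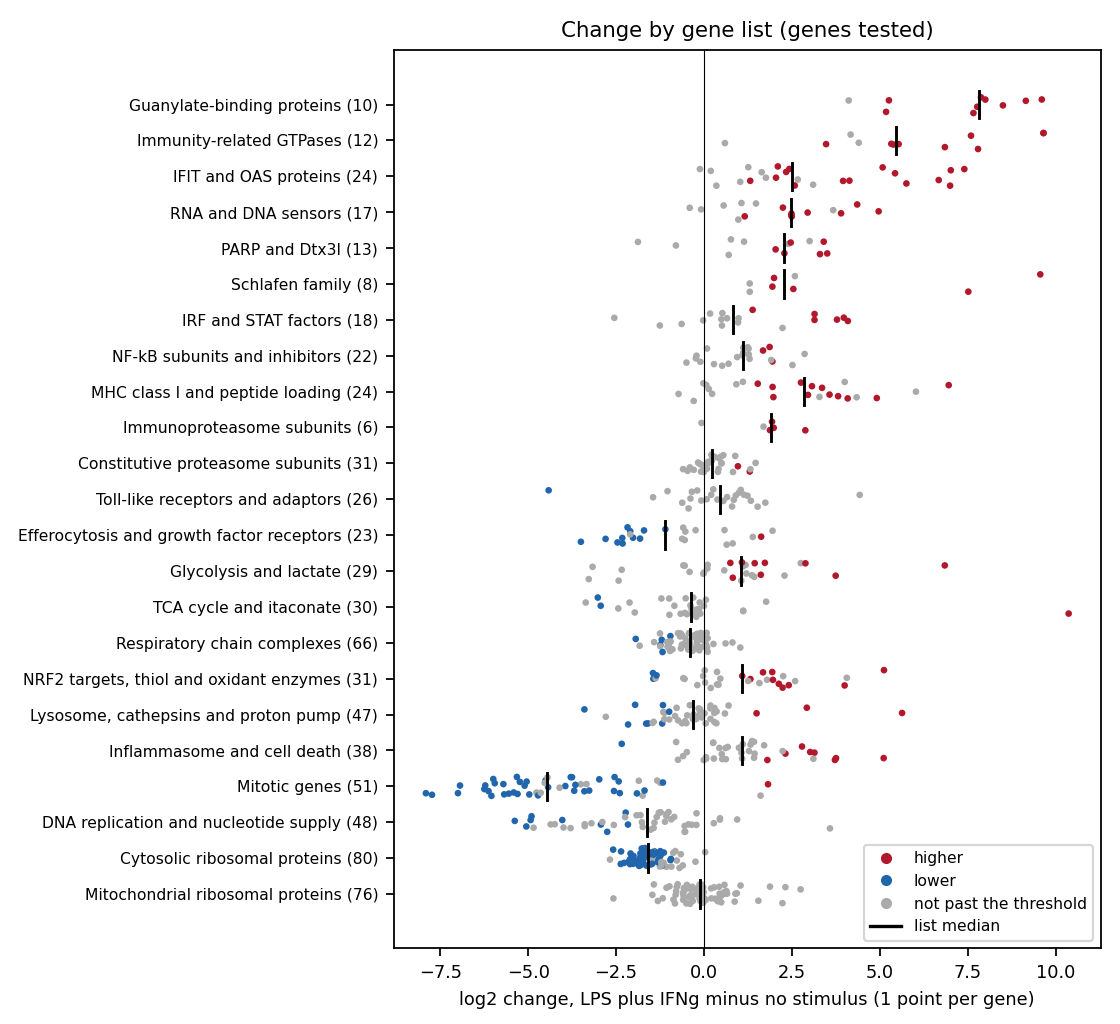
Log2 change of each member (horizontal axis, 1 point per gene) of 23 gene lists (rows, number of tested members in brackets), coloured by call, with a black bar at the list median. The interferon-linked lists at the top lie to the right of 0, with medians of 2.27 to 7.82 in the first 6 rows, while mitotic genes (-4.45) and cytosolic ribosomal proteins (-1.60) lie to its left; points of genes at 0 in a whole group are drawn at their fitted change.

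Transcription factors and feedback regulators of the interferon pathways were among the rises. Of 18 interferon regulatory factors, STATs and Janus kinases, 6 were higher and none lower, with a median change of 0.81. Stat2, which carries interferon signals to the nucleus, was at 10.4 and 10.32 without stimulus and 13.5, 13.79 and 13.21 with LPS plus IFNg and Irf1, a factor that IFNg induces, at 7.97 and 8.28 against 12.16, 12.01 and 12.14. Irf7, which amplifies type I interferon, rose by 4.09 (SE 0.46, adjusted p = 0.00308). Irf8, a factor of the monocyte lineage, was at 10.34 and 9.74 against 10.91, 10.83 and 11.33 (adjusted p = 0.0757). Socs1, which blocks Janus kinases, was at 3.05 and 2.14 against 10.91, 10.8 and 11.13, a change of 8.35 (SE 0.30, adjusted p = 7.38e-05), and Socs3, which acts on the IL-6 pathway, at 0.16 and 0 against 7.54, 7.71 and 7.39. Socs1 and Socs3 were the members that passed among 8 of the SOCS family. The mean of Socs1 with IL4 was 8.44, between the other groups (adjusted p of its difference from LPS plus IFNg = 0.00141).

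NF-kB subunits and inhibitors, 22 genes, had 3 members higher, all inhibitors, and none lower, with a median change of 1.12. Nfkbia (I-kappa-B alpha) was at 11.84 and 11.95 without stimulus and 13.79, 13.47 and 14.02 with LPS plus IFNg and Tnfaip3 (A20) at 5.99 and 7.12 against 8.38, 8.62 and 8.51. No subunit of the factor itself passed. The count was 0 without LPS plus IFNg replicate 2 and 1 without unstimulated replicate 2 or LPS plus IFNg replicate 1 or 3. Nfkbia did not pass without 6 of the libraries (IL4 replicates 2 and 3 excepted), with an adjusted p of up to 0.200, without unstimulated replicate 2, nor without the intensity trend (0.0693), and Tnfaip3 did not without LPS plus IFNg replicate 2 (0.0557). None of 12 MAP kinase phosphatases passed, with 0 higher and 0 lower and a median of 0.11 (1 higher with housekeeping scaling).

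Factors of the macrophage lineage moved both ways, 3 higher and 4 lower of 27. Myc, a driver of growth and division, was at 7.52 and 8.57 without stimulus and 5.54, 4.4 and 5.01 with LPS plus IFNg, and averaged 9.81 with IL4. Klf4 was at 7.55 and 7.24 against 10.35, 10.56 and 10.04 and averaged 10.20 with IL4, a difference between the stimuli of 0.12 (adjusted p = 0.89). Outside that list, Hif1a, the hypoxia factor that macrophages also use in inflammation, rose from 7.96 and 8.37 to 9.95, 10.22 and 9.71 (adjusted p = 0.00446). Pparg, a lipid-sensing nuclear receptor, was at 7.44 and 7.61 against 4.24, 3.38 and 0 (adjusted p = 0.0388), the 1 member past the threshold of 19 nuclear receptors (2 others were higher with housekeeping scaling). Without unstimulated replicate 2 none of these except Hif1a passed (adjusted p = 0.107 for Myc, 0.056 for Klf4 and 0.246 for Pparg), and without unstimulated replicate 1 Pparg (0.183) did not. Pparg also missed the threshold with LPS plus IFNg replicate 2 or any 1 IL4 library left out (at most 0.0689), without the intensity trend (0.0596) and in the fit of the 2 groups alone (0.108). Over the list, the counts were 0 higher and 0 lower without unstimulated replicate 2, 1 lower without unstimulated replicate 1, and 1 higher without LPS plus IFNg replicate 1 or 2.

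MHC class I displays peptides cut in the cytosol to cytotoxic T cells. Of 24 class I heavy chains, transporters and loading factors, 12 were higher and none lower, with a median change of 2.86. Tap2, a subunit of the peptide transporter, was at 7.11 and 6.81 without stimulus and 9.99, 9.56 and 9.61 with LPS plus IFNg, and Tapbpl, a peptide editor, at 6.15 and 6.05 against 10.51, 10.21 and 9.84. H2-Q7, a non-classical class I gene that shares its values with H2-Q9, was at 7.59 and 8.13 against 12.02, 12.51 and 13.78, with replicate 3 the highest. The classical heavy chain H2-D1 was already at 14.18 and 14.40 and remained within 14.25 to 14.50 (adjusted p = 0.952), and the light chain B2m had a change of 0.92 (adjusted p = 0.102). Among 6 subunits of the immunoproteasome, the form that cuts peptides for class I, 4 were higher, with a median of 1.90. Psmb8, Psmb9 and Psmb10, its catalytic subunits, rose by 1.93, 2.88 and 1.98 (adjusted p = 0.00256, 0.00302 and 0.0057). The 31 subunits of the constitutive proteasome had 2 members higher and a median of 0.22. Without unstimulated replicate 1, 6 of the class I list were higher, and the 2 constitutive subunits were lost, as they were without unstimulated replicate 2, IL4 replicate 1 or LPS plus IFNg replicate 1 or 2 (1 was left without IL4 replicate 3 or LPS plus IFNg replicate 3).

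MHC class II genes, which present antigen to helper T cells, included few calls. Of 10 members, 3 were higher, none lower, and the median was 1.57 (2.18 without members at 0 in a whole group). H2-Eb1, a class II beta chain, was at 5.45 and 4.82 without stimulus and 7.89, 7.09 and 6.91 with LPS plus IFNg (adjusted p = 0.0315), and averaged 7.39 with IL4. Cd74, the invariant chain, was at 5.86 and 7.01 against 8.05, 6.84 and 7.35, groups that overlap. H2-Eb1 did not pass without 6 of the libraries (IL4 replicates 2 and 3 excepted), with an adjusted p of up to 0.205, without unstimulated replicate 2, and the list count was 0 without LPS plus IFNg replicate 1 or 3 and 1 without either unstimulated library, IL4 replicate 1 or LPS plus IFNg replicate 2.

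Costimulatory and checkpoint molecules, 20 genes, had 5 members higher and 2 lower. Cd274 (PD-L1), the ligand that restrains T cells through PD-1, was at 7.08 and 7.3 without stimulus and 12.98, 13.07 and 13.03 with LPS plus IFNg, and Slamf8, a receptor of the SLAM family, at 3.74 and 4.6 against 8.33, 8.8 and 8.5. The fall of 4632428N05Rik (VISTA), another inhibitor of T cells, was from 8.56 and 8.57 to 7.09, 6.73 and 6.88 (adjusted p = 0.00683). VISTA averaged 6.61 with IL4, and the difference between the stimuli did not pass (adjusted p = 0.48). Cd274 missed the threshold without unstimulated replicate 1 (adjusted p = 0.0612) or 2 (0.0719), and the counts were 2 higher without unstimulated replicate 2 and 1 lower without unstimulated replicate 1.

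Receptors through which macrophages sense microbes, complement fragments and chemokines moved in both directions. Fpr2, a receptor for formylated bacterial peptides, was at 5.11 and 5.14 without stimulus and 12.05, 12.08 and 10.86 with LPS plus IFNg. Ccr7, which guides cells to lymph nodes, was at 0 in both unstimulated libraries, and in all IL4 libraries, and at 5.38, 4.61 and 3.88 with LPS plus IFNg. Ccr2, the receptor of Ccl2 and Ccl7, was at 8.55 and 8.01 against 6.49, 5.95 and 6.36, and C5ar1, the receptor of the complement fragment C5a, at 10.87 and 10.85 against 8.43, 8.83 and 8.76. C5ar1 averaged 8.10 with IL4, 0.57 below LPS plus IFNg (adjusted p = 0.175), whereas Ccr2 averaged 8.30 there, and the difference of LPS plus IFNg from IL4 was -2.03 (adjusted p = 0.00222). Over 19 chemokine and chemoattractant receptors, 3 were higher and 5 lower. The count of higher members was 5 without IL4 replicate 3, and that of lower members 3 without unstimulated replicate 1 or LPS plus IFNg replicate 3 and 2 without unstimulated replicate 2.

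Of 26 Toll-like receptors and their adaptors, 0 were higher and 1 lower, with a median change of 0.46. The lower gene was Tlr2, which senses bacterial lipopeptides, at 4.29 and 5.04 without stimulus and 0, 0 and 0.75 with LPS plus IFNg. Tlr2 was also at 0 in all IL4 libraries (adjusted p of the difference between the stimuli = 0.805). Tlr4, the receptor for LPS, was at 8.28 and 7.86 against 8.65, 7.71 and 8.66, groups that overlap (log2 change 0.27, SE 0.36, adjusted p = 0.76), and its co-receptor Cd14 at 7.22 and 7.88 against 8.56, 7.53 and 7.7 (adjusted p = 0.705). Among 26 lectins and scavenger receptors 3 were higher and 3 lower. Mrc1, the mannose receptor, went from 11.02 and 10.41 to 6.43, 6.63 and 6.17, which is -4.3 on the log2 scale (SE 0.31, adjusted p = 0.000798), and averaged 12.07 with IL4. Clec4e (Mincle), which binds a mycobacterial glycolipid, was at 4.19 and 1.58 against 10.69, 10.69 and 10.73; it did not pass without unstimulated replicate 2 (adjusted p = 0.077). With any 1 of the 5 libraries left out 1 member of that list was higher, and without unstimulated replicate 1 also 1 lower.

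In the list of growth factor signals and the uptake of dying cells 11 of 23 were lower and 1 higher, with a median change of -1.10. Igf1, insulin-like growth factor, was at 13.19 and 12.9 without stimulus and 11.03, 10.39 and 10.77 with LPS plus IFNg. Trem2, a lipid-binding receptor, and its signalling partner Tyrobp had log2 changes of -2.17 (SE 0.32, adjusted p = 0.00767) and -1.71 (SE 0.23, adjusted p = 0.00608). Csf1r, the receptor of the macrophage growth factor, fell by 1.10 (SE 0.20, adjusted p = 0.0183). The member that rose was Csf2rb, the shared receptor chain for GM-CSF, IL-3 and IL-5, at 8.33 and 7.83 against 9.93, 9.67 and 9.52. With unstimulated replicate 1 left out 1 member was lower, and with replicate 2 left out also 1. Without replicate 1, Igf1 (adjusted p = 0.0589), Trem2 (0.0687) and Csf1r (0.0865) missed the threshold, and without replicate 2 Igf1 (0.0521), Trem2 (0.056) and Tyrobp (0.05) did. Csf1r also missed it without LPS plus IFNg replicate 2 (0.0631) or 3 (0.0535), without the intensity trend (0.0712) and with housekeeping scaling (0.072). With that scaling 4 members were higher and 9 lower, and without IL4 replicate 2 or 3 a further member was higher, 2 in all.

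Cytokine receptors, 27 genes, had 4 members higher and 2 lower (1 lower with housekeeping scaling). Over all tested genes 3.72% were higher and 4.25% lower. Il15ra, which presents IL-15 to lymphocytes, was at 3.97 and 2.94 without stimulus and 8.97, 9.04 and 8.81 with LPS plus IFNg. Ifngr1, the ligand-binding chain of the IFNg receptor, was at 11.44 and 11.71 against 8.8, 9.65 and 9.71 (log2 change -2.19, SE 0.36, adjusted p = 0.0123), with no overlap between groups. That call was lost without unstimulated replicate 1 (adjusted p = 0.0731) or 2 (0.128). Higher members numbered 1 without unstimulated replicate 2 and 2 without IL4 replicate 1 or any 1 LPS plus IFNg library, and lower members 0 without either unstimulated library and 1 without LPS plus IFNg replicate 2 or 3. Among 23 integrins and adhesion molecules 2 were higher and 6 lower (3 and 3 with housekeeping scaling), and Cd9, a tetraspanin, was at 10.08 and 10.17 against 7.86, 8.18 and 8.43. There, 1 to 5 members were lower and 0 to 3 higher in fits that left out 1 library, with 1 lower without either unstimulated library.

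Complement genes moved in both directions. Of 21 members 3 were higher and 5 lower. Factor B (Cfb) of the alternative pathway was at 0.09 and 3.35 without stimulus and 10.28, 9.66 and 10.4 with LPS plus IFNg, and C3, the central component, at 4.97 and 4.56 against 9.63, 9.68 and 9.59. C1qc, a chain of C1q, which starts the classical pathway, was at 11.82 and 11.58 against 10.01, 10.23 and 10.52. It averaged 10.40 with IL4, and the difference of LPS plus IFNg from IL4 was -0.15 (adjusted p = 0.668). Without either unstimulated library 3 members were lower, and without LPS plus IFNg replicate 1, 5 were higher.

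Arginine is the substrate of both nitric oxide synthase and arginase. Slc7a2, the inducible importer of arginine, was at 5.99 and 6.33 without stimulus and 11.64, 11.68 and 11.66 with LPS plus IFNg, with almost the same level in the 3 stimulated libraries, and averaged 11.58 with IL4. Arg1, the arginase that competes with Nos2 for arginine, rose as well, from 2.31 and 4.19 to 7.80, 7.57 and 7.57, with a difference from IL4 of -5.93 (adjusted p = 0.000305). Oaz1, an inhibitor of polyamine synthesis, fell by 1.29 (adjusted p = 0.00734). In this list 4 of 21 members were higher and 1 lower, with a median change of -0.27, or 0.05 with housekeeping scaling. Bst1 and Pnp, enzymes of NAD and purine breakdown, and Adora2a, an adenosine receptor, were the 3 of 19 purine genes that passed, all higher, with Bst1 at 4.05 and 5.08 against 9.12, 9.29 and 9.63 and Pnp at 8.76 and 8.24 against 11.15, 11.11 and 11.41.

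Transcripts of some genes of energy metabolism changed, while most members of these lists did not pass. Of 29 genes of glycolysis and lactate handling, 9 were higher and none lower, with a median change of 1.06 (12 higher with housekeeping scaling). Hk3, a hexokinase, was at 8.26 and 7.85 without stimulus and 9.84, 9.68 and 9.83 with LPS plus IFNg, and Pgk1, phosphoglycerate kinase, at 7.76 and 7.9 against 9.25, 9.43 and 9.66. Slc2a6, a sugar transporter of lysosomes, was at 0.13 and 0 against 7.38, 6.75 and 6.61, and Slc16a3, which exports lactate, at 5.24 and 4.9 against 7.73, 7.55 and 8.58. Pkm2, pyruvate kinase, was at 9.84 and 10.04 against 10.58, 10.43 and 10.55 and did not pass (adjusted p = 0.103). The count was 5 without either unstimulated library.

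In the TCA cycle list Irg1 was the 1 member of 30 that rose, and 2 fell. Such counts are near the shares over all tested genes, 3.72% higher and 4.25% lower. Idh1, an NADP-dependent isocitrate dehydrogenase of the cytosol, was at 11.35 and 11.42 without stimulus and 8.08, 8.5 and 8.78 with LPS plus IFNg, and Suclg2, a subunit of succinyl-CoA synthetase, at 8.31 and 8.42 against 5.48, 4.9 and 5.64. Of 66 respiratory chain and ATP synthase subunits 5 were lower (4.25% over all tested genes) and none higher, with a median of -0.41. Under housekeeping scaling 1 was lower, with a median of -0.09. Left-out libraries moved that count between 1 (without unstimulated replicate 2) and 5, with 2 without unstimulated replicate 1 or LPS plus IFNg replicate 3 and 3 without IL4 replicate 1 or LPS plus IFNg replicate 1 or 2. None of 76 mitochondrial ribosomal proteins passed in either direction. Their median was -0.12, or 0.20 with housekeeping scaling.

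Lipid genes moved in single steps. Acsl1, which activates long-chain fatty acids, was at 7.23 and 5.95 without stimulus and 11.47, 11.9 and 12.16 with LPS plus IFNg. Fabp4, a fatty acid carrier, was at 11.08 and 11.6 against 8.44, 7.86 and 7.87, and Apoe, which takes cholesterol out of macrophages, at 12.61 and 12.09 against 10.38, 10.07 and 10.18. Apoe averaged 10.22 with IL4, a difference of LPS plus IFNg from IL4 of -0.01 (SE 0.19, adjusted p = 1), while Fabp4 averaged 10.47 there (adjusted p = 0.00103). In the list of cholesterol efflux and lipid handling 2 of 21 were higher and 4 lower. With unstimulated replicate 1 left out 1 was higher and 2 lower, with replicate 2 left out 0 and 2, and with LPS plus IFNg replicate 2 left out 2 were lower. The list of tryptophan and NAD metabolism had 3 of 12 members higher, with Nampt, the salvage enzyme of NAD, at 10.03 and 10.28 against 12.34, 12.25 and 12.04. Kynu, of the kynurenine pathway, was at 0 in both unstimulated libraries and at 4.78, 3.75 and 4.40, while Ido1, the entry enzyme, was at 0 in all 8 libraries.

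Of 31 antioxidant genes 10 were higher and 3 lower, with a median change of 1.09 (0.78 without members at 0 in a whole group). Sod2, the mitochondrial superoxide dismutase, was at 7.98 and 8.4 without stimulus and 12.07, 12.37 and 12.11 with LPS plus IFNg, which is 4 on the log2 scale (SE 0.24, adjusted p = 0.000391). Prdx5, a peroxiredoxin, was at 8.65 and 8.66 against 10.79, 10.83 and 11.05, Gclm, a subunit of the enzyme that begins glutathione synthesis, at 9.13 and 8.54 against 11.02, 10.76 and 11.11, and Slc7a11, the cystine importer that feeds it, at 4.56 and 4.01 against 8.79, 9.58 and 9.83. Of the lower members, 1 was left with housekeeping scaling and without either unstimulated library or LPS plus IFNg replicate 1 or 2. In iron handling, Hmox1, which breaks down heme, rose by 2.37 and Tfrc, the transferrin receptor, fell by 2.54 (adjusted p = 0.0123 and 0.00547), while the ferritin heavy chain Fth1 was at 13.44 and 14.02 against 14.5, 15.86 and 14.8 (adjusted p = 0.138). Without unstimulated replicate 2 neither Hmox1 (adjusted p = 0.128) nor Tfrc (0.0629) passed, nor Hmox1 without replicate 1 (0.0746).

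Matrix and lysosomal genes moved in both directions, with abundant ones among the falls. Mmp12, macrophage elastase, was at 14.8 and 14.5 without stimulus and 11.8, 11.96 and 11.83 with LPS plus IFNg, and Timp2, an inhibitor of metalloproteinases, at 12.14 and 11.64 against 9.61, 9.27 and 9.12. Serpinb9, an inhibitor of granzyme B, and Tgm2, a transglutaminase, rose by 4.83 and 3.44 (adjusted p = 0.00105 and 0.00149). In this list of 30 proteases and inhibitors 5 were higher and 4 lower (3.72% and 4.25% over all tested genes). Among 47 lysosomal genes 3 were higher and 8 lower, with a median change of -0.32 (0 with housekeeping scaling, where 4 were higher and 5 lower). Of the 44 with a mean of at least 5, 2 were higher and 8 lower, against 403 and 434 of all 7380 such genes. Ctsc, the protease that activates granzymes, was at 8.78 and 8.21 against 11.43, 11.25 and 11.57. Hexa, a hexosaminidase, was at 10.6 and 10.44 against 8.75, 8.61 and 8.31, and Atp6v0d2, a proton pump subunit of osteoclasts and macrophages, at 11.74 and 11.93 against 8.45, 8.53 and 8.33. Ctsb, an abundant cathepsin, was at 14.96 and 15.09 against 14.25, 14.8 and 14.6 (adjusted p = 0.53). Lysosomal falls numbered 3 with unstimulated replicate 1 left out, 4 with replicate 2 and 5 with LPS plus IFNg replicate 2. For the proteases, 3 were higher without either unstimulated library, IL4 replicate 3 or LPS plus IFNg replicate 2 or 3, and 2 lower without unstimulated replicate 2.

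Of 38 cell death genes 8 were higher and 1 lower, with a median change of 1.07. Casp4 (caspase-11), which binds LPS in the cytosol, was at 5.2 and 5.2 without stimulus and 8.26, 8.53 and 8.23 with LPS plus IFNg. Bak1, which opens the outer mitochondrial membrane, was at 6.8 and 7.17 against 8.41, 8.91 and 9.03. Mlkl, which ruptures the membrane in necroptosis, and Cflar, which blocks caspase-8, rose by 3.75 and 3.02 (adjusted p = 0.00548 and 0.00573). Without any 1 of the 5 libraries 5 members were higher, and the fall was lost unless IL4 replicate 1 or 2 was the one left out. Mlkl (adjusted p = 0.0594) and Cflar (0.0589) missed the threshold without unstimulated replicate 2, and Cflar (0.0556) without replicate 1.

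Genes of mitosis made up many of the deepest falls. Of 51 mitotic genes 38 were lower and 1 higher, with a median change of -4.45 (-3.94 without members at 0 in a whole group, -4.13 with housekeeping scaling). Ccna2, cyclin A2, was at 7.72 and 7.74 without stimulus and at 0 in all 3 LPS plus IFNg libraries. The same held for Ube2c, which marks mitotic proteins for destruction, at 6.77 and 7.22 without stimulus, and for the mitotic kinase Plk1 at 6.04 and 6.45. Members above 0 in every stimulated library fell as well. Top2a, which untangles chromosomes, was at 10.48 and 9.84 without stimulus and 4.39, 5.01 and 3.96 with LPS plus IFNg, the kinase Cdk1 at 8.39 and 8.58 against 4.99, 4.81 and 4.67 and the spindle motor Kif11 at 9.03 and 9.12 against 3.41, 3.64 and 3.53. Cenpf, a kinetochore protein, was at 9.12 and 8.63 against 2.91, 0 and 0. With IL4 these genes averaged 5.49 (Plk1) to 9.41 (Top2a), each higher than with LPS plus IFNg (adjusted p of 0.000194 for Kif11 to 0.00337 for Plk1).

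The mitotic count was 18 without either unstimulated library, and its riser passed neither without unstimulated replicate 2, IL4 replicate 1 or any 1 LPS plus IFNg library, while 2 were higher without IL4 replicate 2. Of 48 genes of DNA replication and nucleotide supply 9 were lower and none higher, with a median of -1.63. Uhrf1, which copies DNA methylation, was at 7.32 and 8.61 without stimulus and 3.27, 2.92 and 2.93 with LPS plus IFNg, and missed the threshold without unstimulated replicate 2 (adjusted p = 0.0749). Pcna, the replication clamp, was at 9.48 and 9.83 against 8.57, 9.03 and 9.72, groups that overlap (adjusted p = 0.445). That count was 3 without unstimulated replicate 1, 1 without replicate 2 and 4 without IL4 replicate 1. Cell cycle regulators included Mdm2, the p53 antagonist, at 9.93 and 9.61 against 11.54, 11.45 and 11.66, and the inhibitor Cdkn1a (p21) at 11.14 and 10.93 against 13.6, 13.41 and 13.12. Cdkn1a did not pass without unstimulated replicate 1 (adjusted p = 0.0883) or 2 (0.144) or LPS plus IFNg replicate 2 (0.0522).

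**Figure D5:**
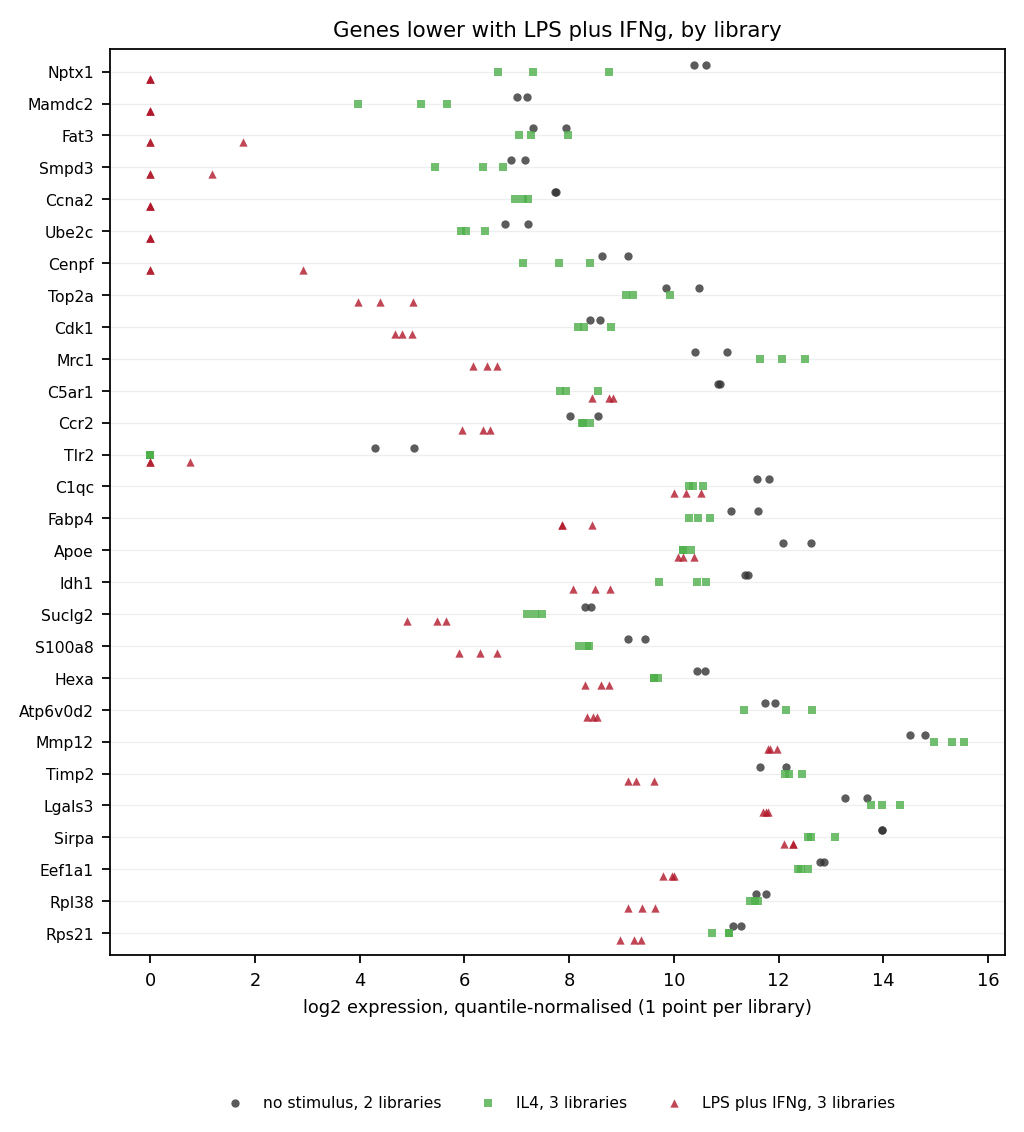
Log2 expression (horizontal axis) of 28 genes that were lower with LPS plus IFNg, 1 point per library: black circles without stimulus (2), green squares with IL4 (3) and red triangles with LPS plus IFNg (3). For every gene drawn the red points lie to the left of both black points, while the green points of Ccna2 and Rpl38 stay near the black ones.

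Promoter windows of mitotic genes often carry a CHR element, spelled TTTGAA, which repressor complexes of the cell cycle bind, and E2F sites, spelled TTTNNCGC. A CHR was found in 18.3% of the windows of lower genes, 12.7% of those of all tested genes and 14.0% of those of higher genes. An E2F site stood in 10.6%, 7.81% and 4.92%. Over all 32851 RefSeq windows, tested or not, the shares were 17.9% for CHR and 5.17% for E2F. The windows of the 2 mitotic genes Cenpf (chr1:189688037-189688336, minus strand) and Ube2c (chr2:164769679-164769978, plus strand) are given with the CHR match in capitals. In Cenpf it lies 2 bases after the transcript start, and in Ube2c 29 bases before it, read on the opposite strand.
Cenpf: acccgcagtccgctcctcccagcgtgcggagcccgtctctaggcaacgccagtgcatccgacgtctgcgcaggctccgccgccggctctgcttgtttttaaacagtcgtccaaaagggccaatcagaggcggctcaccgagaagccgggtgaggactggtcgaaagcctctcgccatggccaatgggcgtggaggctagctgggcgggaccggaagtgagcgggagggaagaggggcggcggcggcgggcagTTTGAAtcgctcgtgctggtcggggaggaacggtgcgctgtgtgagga
Ube2c: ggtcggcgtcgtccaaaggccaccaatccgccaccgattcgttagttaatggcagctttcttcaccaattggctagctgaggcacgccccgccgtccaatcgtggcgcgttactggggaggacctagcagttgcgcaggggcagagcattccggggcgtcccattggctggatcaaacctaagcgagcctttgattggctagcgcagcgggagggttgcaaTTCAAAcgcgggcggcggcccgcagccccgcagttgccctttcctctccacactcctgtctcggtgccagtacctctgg
Kif2c and Casc5, also among the largest falls whose windows were examined singly, held 1 CHR each, while Fat3, X99384, Ccr3 and Cxcr4 held neither motif. Windows on 1 of the chromosomes were left out of that choice, so larger falls may be missing from it.

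The deepest falls also held genes outside the mitotic list. Nptx1, a pentraxin known from synapses, was at 10.39 and 10.61 without stimulus, averaged 7.57 with IL4, and was at 0 in all 3 LPS plus IFNg libraries. Mamdc2 was likewise at 0 there against 7 and 7.19. Fat3, a giant protocadherin, was at 7.93 and 7.3 without stimulus and 0, 1.78 and 0 with LPS plus IFNg, and Smpd3, a neutral sphingomyelinase, at 6.89 and 7.16 against 0, 1.17 and 0. With IL4 they averaged 7.43 and 6.17. Casc5 (a kinetochore scaffold), X99384 and Bard1, the partner of Brca1, were at 0 in all 3 stimulated libraries and between 6.01 and 7.14 without stimulus. Of the other genes named by the same rule, Arap3, Ccr3 and Cxcr4 did not hold in every fit: without unstimulated replicate 2 their adjusted p was 0.0629, 0.0684 and 0.199, and without replicate 1 it was 0.0648 for Arap3 and 0.151 for Cxcr4, with Cxcr4 lost also without LPS plus IFNg replicate 3 (0.0635) and in the fit of the 2 groups alone (0.0703).

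The remaining lists held few calls, to be set against 3.72% higher and 4.25% lower over all tested genes. Of 17 AP-1, BATF and ATF factors 2 were higher and 1 lower, of 10 Fc receptors 2 and 0, of 12 pentose phosphate genes 1 and 0, and of 8 NADPH oxidase subunits 1 and 0. Sterol synthesis had 0 higher and 2 lower of 27, fatty acid oxidation 1 and 1 of 29, amino acid transport and ATF4 targets 2 and 1 of 28, and prostaglandin and leukotriene enzymes 3 and 5 of 21. In cell cycle regulators 4 of 27 were higher and 3 lower, in autophagy 2 and 0 of 23, and in the cytoskeleton 1 and 4 of 34. None of 26 genes of folding in the endoplasmic reticulum passed. With housekeeping scaling the prostaglandin list had 4 higher and 2 lower, the cytoskeleton 3 and 3, sterol synthesis 0 and 1, the AP-1 list 3 and 0, and endoplasmic reticulum folding 1 and 0.

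Most of these small counts depended on single libraries. With unstimulated replicate 1 or 2 left out, the rises of the AP-1, Fc receptor, pentose phosphate and NADPH oxidase lists and the falls of the sterol, fatty acid oxidation and cell cycle lists numbered 0. AP-1 rises also numbered 0 with LPS plus IFNg replicate 2 or 3 left out, and Fc receptor rises with any LPS plus IFNg library left out. The AP-1 fall was lost except with IL4 replicate 1 or 2 left out or with unstimulated replicate 1 left out, which gave 2. Pentose phosphate rises were 0 also with IL4 replicate 1 or LPS plus IFNg replicate 2 left out, and NADPH oxidase rises with IL4 replicate 1 or 3 or LPS plus IFNg replicate 1 or 3 left out. Sterol falls were 0 with LPS plus IFNg replicate 1 left out, 1 with IL4 replicate 1 or LPS plus IFNg replicate 3, and 4 with IL4 replicate 3, which also gave 2 falls in fatty acid oxidation. Amino acid rises numbered 1 with either unstimulated library, IL4 replicate 1 or LPS plus IFNg replicate 1 or 2 left out, and the fall 0 with unstimulated replicate 2. Cell cycle rises numbered 2 with unstimulated replicate 2 or LPS plus IFNg replicate 2 left out, and the latter left 1 fall. Prostaglandin falls numbered 3 with unstimulated replicate 1 or IL4 replicate 3 left out, and 2 with unstimulated replicate 2, IL4 replicate 1 or any LPS plus IFNg library. Autophagy rises and cytoskeletal falls numbered 1 with either unstimulated library left out, and the cytoskeletal rise 0 with unstimulated replicate 2 and 2 with IL4 replicate 2 or 3.

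Transcripts for cytosolic ribosomal proteins were lower in most cases. Of 80, 59 were lower and none higher, with a median change of -1.60, and 43 were lower with a median of -1.29 under housekeeping scaling. Rpl38 was at 11.56 and 11.75 without stimulus and 9.39, 9.13 and 9.63 with LPS plus IFNg, Rpl37a at 11.78 and 11.77 against 9.83, 10.04 and 9.71 and Rps21 at 11.28 and 11.12 against 8.96, 9.38 and 9.24, and all were near their unstimulated level with IL4, at 11.53, 11.82 and 10.94. Rps24 was at 13.25 and 13.12 against 12.55, 12.57 and 12.45, which did not pass (adjusted p = 0.175). Eef1a1, the elongation factor that brings transfer RNA to the ribosome, had the largest fall among abundant genes, from 12.79 and 12.87 to 9.79, 10.01 and 9.96, which is -2.91 on the log2 scale (SE 0.17, adjusted p = 0.000391). Of 43 genes of ribosome biogenesis 1 was lower, and of 53 translation factors and tRNA synthetases 4 were lower and 2 higher (with housekeeping scaling, 0 of the biogenesis genes were lower, and of the translation list 1 was lower and 2 higher). Ribosomal protein genes have many processed pseudogenes, and the sources used here do not say how reads with several matches were treated. The count of lower ribosomal proteins was 25 with unstimulated replicate 1 left out, 24 with replicate 2 and 38 with LPS plus IFNg replicate 2, and that of lower translation factors 1 without either unstimulated library and 2 without any 1 other library except LPS plus IFNg replicate 3. The higher translation factors numbered 0 without either unstimulated library and 1 without any other except IL4 replicate 2. Ribosome biogenesis had 0 lower without unstimulated replicate 2 or LPS plus IFNg replicate 1 or 2, and 2 without IL4 replicate 2 or LPS plus IFNg replicate 3.

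Among genes with a mean of at least 11 over the 5 libraries, 35 of 276 were higher (12.7%) and 34 lower (12.3%). Rises in this set included Mnda at 9.97 and 10.33 without stimulus and 14.14, 13.5 and 13.92 with LPS plus IFNg, Mndal at 10.86 and 11.03 against 14.02, 13.09 and 13.19 and the ubiquitin ligase Trim30a at 9.59 and 9.31 against 12.41, 11.91 and 12.05. The falls included Zfp36l1, which destabilises messenger RNA, at 12.93 and 12.53 against 10.44, 10.49 and 10.54, Txnip, an inhibitor of glucose uptake, at 13.77 and 13.21 against 11.64, 11.48 and 11, and Mbnl1, a splicing regulator, at 12.25 and 12.49 against 10.63, 10.36 and 10.3. Actb, the actin whose level was used to pool the samples, was at 15.3 and 15.54 against 14.6, 14.7 and 14.96 (log2 change -0.67, adjusted p = 0.325).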

How the data were processed

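Gene expression was measured in 8 libraries, of which 5 are compared here. Per the labels' protocols, barcoded oligo-dT primed polyadenylated RNA, Actb in qPCR set the pooling, and PCR amplified stranded 3' end libraries, with no molecular identifiers described. TopHat and the build mm9 are named in the submitters' processing notes, while the sources used here do not give the counting tool or the handling of multiply matching reads. The authors deposited log2 values, quantile-normalised per the file's name, which hides depth and any overall difference in RNA amount, so depth per library is unknown and no interval from counts is given. All 8 columns of the table belong to the series.

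Of 20258 rows with a symbol (1 had none), 6643 held 1 same value in all libraries and were left out, and 13615 were tested. The fit with limma 3.58.1 (R 4.3.3) took 1 mean per group over the 8 libraries and an intensity trend, 5 residual and 2.31 prior degrees of freedom. Tests were two-sided, with Benjamini-Hochberg adjustment over all genes tested and a threshold of 0.05. The fit was tested on simulated data with known changes. Pearson's r across 7283 genes was 0.928 between the unstimulated libraries, 0.883 to 0.907 among the LPS plus IFNg libraries and 0.716 to 0.734 between the groups. Genes are not independent replicates.

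The 67 gene lists, the promoter motifs and the naming rule were chosen with earlier results of these data known, so they are no independent evidence. The rule takes the 15 largest rises and falls with libraries that did not overlap, the 10 largest of each among genes with a mean of at least 11, up to 4 called and 2 uncalled members of each list, members at 0 in a group and at 5 or more in the other, and a fixed set of 27 genes, and not every gene it takes is described. The genes named under other observations lie outside it. Promoters were matched by RefSeq accession (13444 genes). When genes were chosen for a description of single windows, those on 1 of the chromosomes were left out, though not from the shares. Alternatives were no intensity trend, only the 2 groups, genes with a mean of at least 5, low values damped (1 added to the linear value), housekeeping and median scaling, a block for the replicate number, and leaving out libraries in turn.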

Additional observations from a re-analysis of the deposited data

How the results depend on the processing

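The counts of 506 higher and 579 lower genes stayed within 1.5 times of their values without the intensity trend, with the 2 groups alone, with genes of a mean of at least 5, with low values damped, and with housekeeping or median scaling. With the replicate number as a block they were 255 and 256. Whether the numbers pair the samples is not known. Deviations from the group means of same-numbered libraries had r = 0.0486 (number 1) and -0.00423 (number 2), with no more than 2 pairs. The deviations of the 2 unstimulated libraries mirror each other, so these values cannot decide it. With 1 library left out, the counts ran from 341 to 556 higher and from 309 to 598 lower. A lone unstimulated library is then assumed to vary like the other groups. Among the named genes, 2 changed sign, neither past the threshold: H2-D1 ran from -0.05 to 0.18 with 1 library left out (below 0 when that was unstimulated replicate 1, or LPS plus IFNg replicate 3, at -0.01), and Emr1 from -0.41 to 0.05 (above 0 when it was LPS plus IFNg replicate 3), with 0.09 under housekeeping scaling and 0 under the block. Named genes that had not passed did so in 6 cases with the 2 groups alone, 10 with the filter at a mean of 5 and 8 with housekeeping scaling, and 9, 3, 2 and 1 named calls were lost with the block, without the trend, with the 2 groups alone and with housekeeping scaling. The cause was not tested. Depth is unknown, so a level of 0 does not show absence.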

Other observations

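The genes in this section belong to no list and were chosen after their values were seen, so they are descriptions. Saa3, an acute phase protein, was at 6.95 and 7.42 without stimulus and 12.48, 12.33 and 12.79 with LPS plus IFNg, and Fgl2, a fibrinogen-like protein of activated macrophages, at 5.92 and 7.03 against 12.43, 11.88 and 12.18. AA467197 was at 4.87 and 3.12 against 12.73, 12.18 and 12.37 and averaged 9.40 with IL4, between the other groups. Procr, the endothelial receptor of protein C, was at 6.92 and 6.75 against 11.16, 11.02 and 11.25, the transporter Slco3a1 at 5.2 and 3.35 against 10.8, 10.8 and 10.73 and the inhibitory receptor Cd300lf at 5.87 and 7.36 against 11.09, 11.5 and 10.9. Mxd1, a transcriptional repressor, rose by 3.66 (limma adjusted p = 0.00179). Alas1, the first enzyme of heme synthesis, rose by 2.33 (adjusted p = 0.00267).

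On the side of the falls, Igfbp4, a carrier of insulin-like growth factors, went from 10.28 and 10.48 to 5.12, 5.31 and 5.48, a log2 change of -5.08 (SE 0.26, limma adjusted p = 0.000332). The transcription factor Sox4 was at 10.71 and 10.73 without stimulus and 6.19, 7.31 and 6.27 with LPS plus IFNg, and the endocytic adaptor Dab2 at 11.01 and 11.2 against 7.5, 7.53 and 7.77. The calcium-binding proteins S100a4 and S100a6 had changes of -3.39 and -2.15, and the annexins Anxa1 and Anxa3 of -2.49 and -2.87, all past the threshold. Cd93 and the selenium carrier Sepp1 were low with both stimuli, averaging 8.21 and 8.38 with IL4 against 10.87 and 11.05 without stimulus, and their differences between the stimuli did not pass (adjusted p = 0.284 and 0.447). Lmnb1, a protein of the nuclear lamina, fell by 3.63 (adjusted p = 0.00302), beside the mitotic genes of the report.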
